A study of Homo sapiens with 27 samples.

Results

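In DLD1 cells, a human colorectal carcinoma line, VPS37A and VPS37C were depleted together with 1 siRNA against each (siVPS37AC), and the RNA of these cells was compared with that of cells given non-targeting control siRNA (siCTRL). The libraries were those labelled siVPS37AC#1 and siCTRL#1, 3 replicates of each, which made 6 of the 27 libraries of the series. Beside them stood the knockdown of VPS37A alone (siVPS37A), the knockdown of VPS37C alone (siVPS37C) and cells that received no siRNA (NT), with 3 libraries each. All cells grew in the same medium and were collected at 72 h. Each paralog was targeted by 1 siRNA sequence, so the loss of the target and other effects of that siRNA cannot be told apart. The siRNAs that made up siCTRL, and the total amount each group received, are not given in the sources used here. The labels give each replicate a batch equal to its number, and nothing says that replicates came from separate cultures, so p-values measure only the spread between these samples, which may be technical.

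VPS37 proteins are subunits of ESCRT-I, a complex built around TSG101, VPS28 and either an MVB12 protein or UBAP1, and each complex holds a single VPS37 paralog. ESCRT-I hands ubiquitinated membrane proteins, among them growth factor and cytokine receptors, to later ESCRT complexes, which pack them into vesicles bound for the lysosome. Receptors that are not packed away remain on endosomes, where they can go on signalling.

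RNA was measured by targeted amplification (Ion AmpliSeq), and the values are parts of a library total of 1000000 (TPM). Each gene was compared between libraries as a share of that total, and values of different genes are not comparable. The table held 10470 genes, and the 6458 that averaged 10 TPM or more were tested. The depth of the libraries is unknown, so all errors come from replicates. The 10 most abundant genes took between 10.7 and 11.3% of the total in the siVPS37AC libraries, against 11.1 to 12.2% in the siCTRL libraries. Epithelial markers were present in both groups, with 13 of 15 listed in the table and sums of 10541 to 11226 TPM in siVPS37AC libraries, against 8947 to 10164 TPM in siCTRL libraries. Of 18 markers of fibroblasts, leukocytes and endothelium, 5 were listed in the table and none reached a mean of 10 TPM. Those 5 summed to between 16.5 and 21.2 TPM in siVPS37AC libraries, against 17.8 to 21.0 TPM in siCTRL libraries. Of these 5, CSF1R was higher in siVPS37AC than in siCTRL (adjusted p under 0.05, limma model over all genes of the table). The library descriptions in the labels end in a number (library number) whose meaning is not given. In replicates 1 to 3 it was 80, 84 and 88 for siVPS37AC, against 88, 88 and 603 for both siCTRL and NT. It thus differed within every replicate pair of siVPS37AC and siCTRL, and the replicate block does not account for it. These are bulk samples, so fewer cells of a kind and less RNA per cell cannot be told apart.

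Both targeted paralogs were low in the double knockdown, and the third was not. VPS37A, also known as HCRP1 and needed for the degradation of EGFR, had 0.593, 0.464 and 0.528 TPM in the siVPS37AC libraries, against 4.77, 6.06 and 6.57 TPM in the siCTRL libraries. Its level fell to 9.37% ± 2.65 of the control level (SD over 3 replicate pairs), with a log2 difference of -2.15 ± 0.13 (log2(TPM + 1) scale, SE, adjusted p = 3.23e-11 in the model over all genes of the table). VPS37C had 3.11, 4.25 and 4.69 TPM in siVPS37AC libraries, against 17.5, 15.7 and 19.2 TPM in siCTRL libraries, or 23.1% ± 4.77 of the control level (SD, n = 3 pairs). Its log2 difference was -1.89 ± 0.20 (adjusted p = 7.39e-07). The groups did not overlap for either gene, as they did not for 25.2% of all tested genes. VPS37B, the paralog that was not targeted, had 58.8, 79.02 and 54.7 TPM in siVPS37AC libraries, against 40.1, 45.9 and 53.2 TPM in siCTRL libraries. All 3 siVPS37AC values lay above all siCTRL values, but the difference of 0.45 ± 0.18 did not pass the threshold of 0.05 (adjusted p = 0.115).

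**Figure D1:**
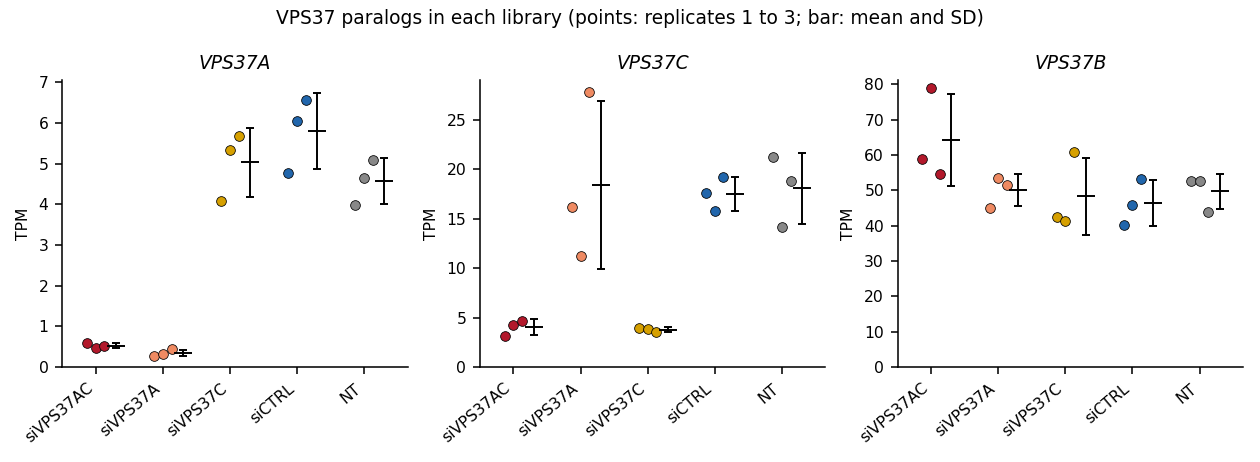
TPM of VPS37A, VPS37C and VPS37B in the 3 libraries of siVPS37AC, siVPS37A, siVPS37C, siCTRL and NT, with 1 point per library and a bar for the mean and SD. VPS37A was low in the 2 groups given its siRNA and VPS37C in the 2 groups given its siRNA, while VPS37B in siVPS37AC lay between 54.7 and 79.0 TPM, against 40.1 to 53.2 TPM in siCTRL.

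Few other ESCRT genes passed the threshold against siCTRL. Of the 5 ESCRT-I genes tested, VPS37C was the only one past it. With quantile normalization 2 of the 5 were called lower, and also 2 with NT as reference. TSG101, which binds the ubiquitinated cargo, averaged 101.6 ± 9.51 TPM in siVPS37AC cells and 97.6 ± 7.78 TPM in siCTRL cells (SD, n = 3 each). VPS28 had 30.5, 28.4 and 29.9 TPM in siVPS37AC libraries, against 45.3, 43.5 and 43.7 TPM in siCTRL libraries (-0.56 ± 0.19, adjusted p = 0.0523). All its siVPS37AC values lay below all its siCTRL values, and 25.2% of all tested genes did not overlap between these groups. UBAP1 averaged 29.7 ± 4.78 TPM in siVPS37AC cells and 26.8 ± 1.95 TPM in siCTRL cells (SD, n = 3 each). Among 24 tested genes of the other ESCRT complexes and their partners, 1 passed the threshold (4.17%, against 8.30% of all tested genes higher). This was PDCD6, whose calcium-binding product ALG-2 recruits ALIX and ESCRT proteins. With NT as reference 2 of the 24 rose and 3 fell, where 26.0% of all tested genes were called. PDCD6 had 138, 152 and 138 TPM in siVPS37AC libraries, against 70.2, 54.1 and 69.7 TPM in siCTRL libraries, a difference of 1.14 ± 0.13 (adjusted p = 2.23e-06). The direction was the opposite against cells without siRNA, which had 227, 228 and 241 TPM (log2 difference -0.70, adjusted p = 3.97e-04).

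Against siCTRL, 762 of the 6458 tested genes (11.8%) changed in siVPS37AC cells, 536 higher (8.30%) and 226 lower (3.50%), by limma with a block for replicate number and Benjamini-Hochberg adjustment. Most changes were small. The median size among the genes called was 0.54 on the log2 scale, and 22 genes rose and 14 fell by more than 2-fold. Of the genes called, 70.3% were higher. With quantile normalization 327 were higher and 294 lower, so 52.7% were higher. Without the replicate block 198 rose and 86 fell. A call that held without the block and with any 1 of the 6 libraries left out was found for 137 higher and 67 lower genes. The lowest count, 313, came without replicate 2 of siVPS37AC. Against NT, 1682 genes (26.0%) were called. Of the 762 genes, 449 also passed the threshold in the same direction against NT (289 higher and 160 lower), and 10 passed it in the opposite direction.

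By size of change, among genes that averaged 50 TPM or more and moved the same way in all 3 pairs, the largest rises included IL32, RPL34, HMGA2, PPP2R1B, PDCD6, TUBB3, LIMK1, DYNLT3, CST7, CHPF and ANXA1. All 11 held without the replicate block and with any 1 library left out. IL32, a cytokine that induces other inflammatory cytokines, had 40.5, 54.3 and 43.1 TPM in siVPS37AC libraries, against 20.8, 11.4 and 21.1 TPM in siCTRL libraries. The lowest siVPS37AC library was above the highest siCTRL library, and the difference was 1.36 ± 0.23 (adjusted p = 3.22e-04). Among all tested genes 25.2% did not overlap between these groups. HMGA2, an architectural chromatin protein of embryonic and tumour cells, had 115, 92.8 and 129 TPM in siVPS37AC libraries, against 51.7, 38.8 and 46.8 TPM in siCTRL and 25.7, 18.5 and 14.4 TPM in NT libraries. It was thus highest in the double knockdown against either control, with a difference from siCTRL of 1.27 ± 0.14 (adjusted p = 1.85e-06). PPP2R1B, a scaffold subunit of the phosphatase PP2A, had 102, 106 and 97.4 TPM in siVPS37AC libraries, against 38.1, 44.7 and 52.2 TPM in siCTRL libraries (1.17 ± 0.15, adjusted p = 1.16e-05). TUBB3, a tubulin best known from neurons, had 126, 110.3 and 96.4 TPM in siVPS37AC libraries, against 63.5, 37.5 and 51.999 TPM in siCTRL libraries (1.13 ± 0.19, adjusted p = 3.92e-04). CHPF, an enzyme that extends chondroitin sulfate chains, was higher by 0.97 ± 0.18 (adjusted p = 9.32e-04).

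Against NT these 11 genes divided. IL32, HMGA2, PPP2R1B, TUBB3 and CHPF were also higher in siVPS37AC than in NT cells. PDCD6 was lower, as above. RPL34, LIMK1, DYNLT3, CST7 and ANXA1 did not pass the threshold against NT. ANXA1, an anti-inflammatory phospholipid-binding protein, shows this division: it had 334, 378 and 362 TPM in siVPS37AC libraries, against 163, 204 and 183 TPM in siCTRL and 313, 332 and 304 TPM in NT libraries. The siVPS37AC values lay above all siCTRL values and above all NT values, but close to NT. Among all tested genes 25.2% did not overlap with siCTRL and 34.4% did not overlap with NT. ANXA1 differed by 0.96 ± 0.10 from siCTRL (adjusted p = 7.39e-07) and by 0.18 from NT (adjusted p = 0.199). For these 5 genes NT was also higher than siCTRL in the same model, by 0.67 ± 0.17 for LIMK1 (adjusted p = 0.0128) and up to 0.96 ± 0.24 for RPL34 (adjusted p = 0.0112).

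**Figure D2:**
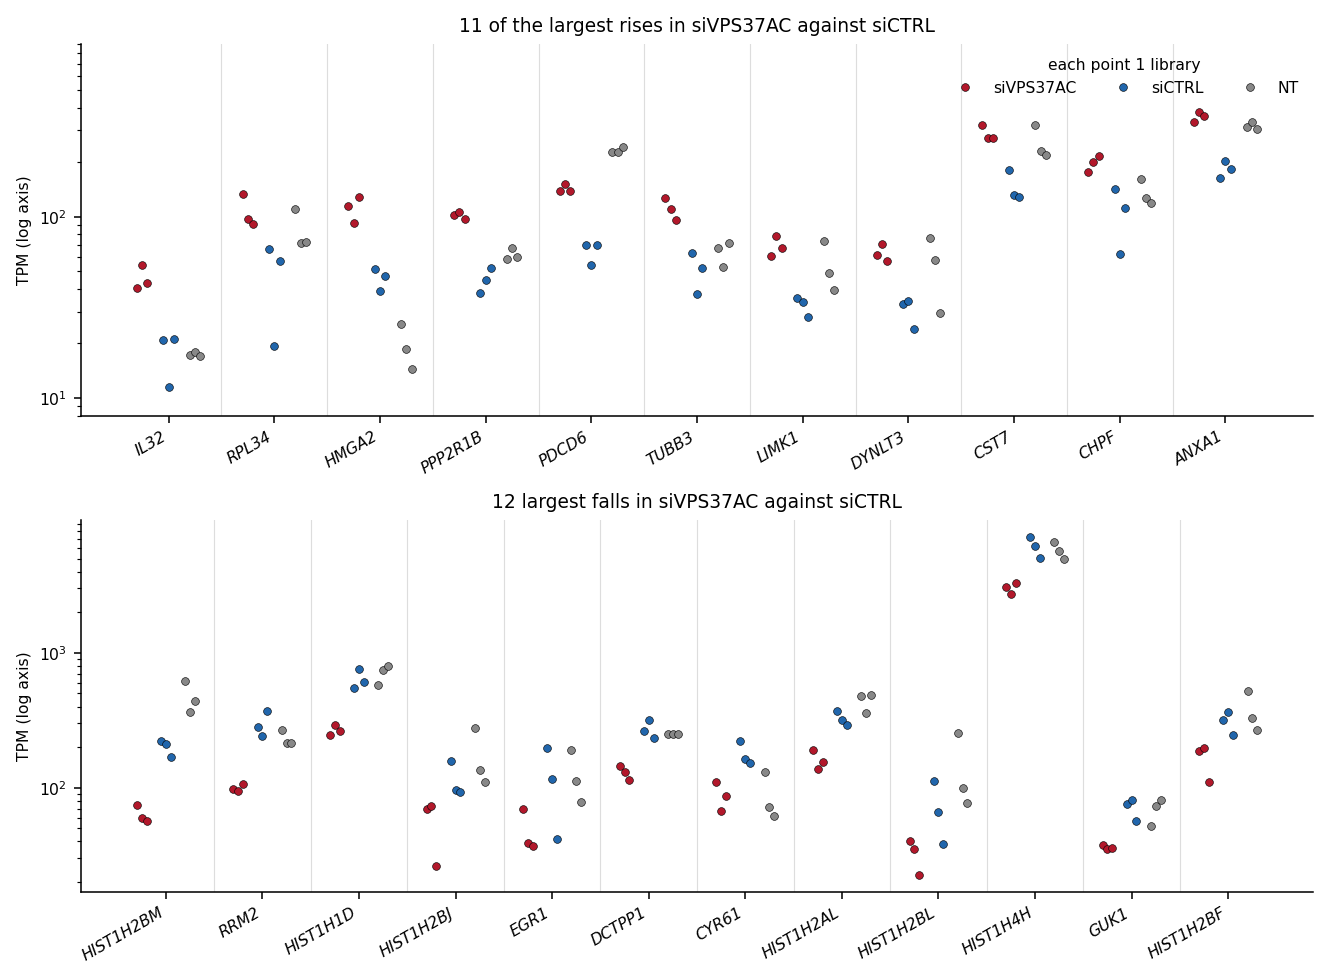
TPM on a log axis for 11 of the largest rises (upper panel) and 12 largest falls (lower panel) in siVPS37AC against siCTRL, with 1 point per library of siVPS37AC, siCTRL and NT. IL32 and HMGA2 in siVPS37AC lie above both controls, PDCD6 lies between siCTRL and NT, and RRM2 and the histone gene HIST1H2BM lie below both.

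Other genes, at lower levels, were picked out after their values were seen. PRR9, a proline-rich protein of the epidermal differentiation gene cluster, had 31.1, 40.5 and 31.4 TPM in siVPS37AC libraries, against 6.13, 3.62 and 3.47 TPM in siCTRL libraries. This was the largest difference of all genes tested, 2.73 ± 0.22 or 6.63-fold (adjusted p = 7.24e-09), and it was also called against NT (2.56, adjusted p = 1.42e-08). SERPINB5, which encodes maspin, had 15.6, 29.4 and 26.996 TPM in siVPS37AC libraries, against 4.34, 7.49 and 5.55 TPM in siCTRL libraries (1.86 ± 0.14, adjusted p = 3.96e-09; 1.38 against NT, adjusted p = 2.62e-07). KRTAP2-3, a hair keratin-associated protein, rose by 1.19 ± 0.19 (adjusted p = 1.98e-04). CDA, cytidine deaminase, was higher than in siCTRL by 1.72 ± 0.19 (adjusted p = 1.86e-06) but not than in NT (-0.18, adjusted p = 0.512). FAM3B, a secreted protein of pancreas and gut, had 6.21, 7.03 and 8.38 TPM in siVPS37AC libraries, against 14.4, 18.3 and 21.3 TPM in siCTRL libraries, and fell by 1.20 ± 0.17 on the log2 scale (adjusted p = 5.04e-05). NRARP, a feedback inhibitor of Notch signalling, had 8.44, 12.9 and 7.34 TPM in siVPS37AC libraries, against 19.3, 18.96 and 26.9 TPM in siCTRL libraries (-1.12 ± 0.20, adjusted p = 6.30e-04).

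The 12 largest falls were in HIST1H2BM, RRM2, HIST1H1D, HIST1H2BJ, EGR1, DCTPP1, CYR61, HIST1H2AL, HIST1H2BL, HIST1H4H, GUK1 and HIST1H2BF. RRM2, the small subunit of ribonucleotide reductase, which makes deoxynucleotides for DNA synthesis, had 97.3, 94.8 and 106 TPM in siVPS37AC libraries, against 284, 244 and 373 TPM in siCTRL and 268, 216 and 216 TPM in NT libraries. The 3 siVPS37AC values lay close together and far below both controls (-1.56 ± 0.13, adjusted p = 2.06e-08). DCTPP1, a pyrophosphatase that breaks down dCTP and its modified forms, had 145, 130.2 and 115 TPM in siVPS37AC libraries, against 264, 319 and 233 TPM in siCTRL libraries (-1.05 ± 0.14, adjusted p = 1.64e-05). GUK1, guanylate kinase, had 37.5, 35.5 and 35.96 TPM in siVPS37AC libraries, against 76.1, 81.5 and 56.4 TPM in siCTRL libraries (-0.94 ± 0.17, adjusted p = 7.49e-04). All 3 were lower than in NT as well. CYR61, a matricellular protein, had 110.3, 67.02 and 87.4 TPM in siVPS37AC libraries, against 221, 165 and 152 TPM in siCTRL libraries (-1.03 ± 0.15, adjusted p = 6.13e-05). Its siVPS37AC values lay within the range of the NT libraries, which had 129.9, 71.5 and 62.05 TPM (0.054, adjusted p = 0.821). EGR1, an immediate early transcription factor, had 69.1, 38.9 and 36.9 TPM in siVPS37AC libraries, against 198, 117 and 41.9 TPM in siCTRL libraries. The groups overlapped, each siVPS37AC library was below its own pair, and the difference of -1.08 ± 0.26 (adjusted p = 0.00773) was not called without the replicate block (adjusted p = 0.223) or without siCTRL replicate 1 (0.0673), siCTRL replicate 2 (0.0561) or siVPS37AC replicate 2 (0.0549).

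Most listed histone genes fell. Of 23 tested genes on the list of core and linker histone genes, 18 fell and none rose, against 3.50% of all tested genes lower. Of the 23 estimates, 22 were negative. The list does not hold every tested histone gene. The median log2 difference of the 23 was -0.61, against 0.07 over all genes tested. HIST1H2BM, a core histone H2B gene, had 74.2, 59.7 and 56.4 TPM in siVPS37AC libraries, against 222, 211 and 170.1 TPM in siCTRL libraries (-1.65 ± 0.17, adjusted p = 6.50e-07). HIST1H1D, a linker histone gene, had 246, 293 and 265 TPM in siVPS37AC libraries, against 552, 762 and 612 TPM in siCTRL libraries (-1.25 ± 0.14, adjusted p = 1.45e-06). HIST1H4H, an H4 gene, had 3096, 2735 and 3279.9 TPM in siVPS37AC libraries, against 7221, 6153 and 5025 TPM in siCTRL libraries (-1.002 ± 0.13, adjusted p = 2.11e-05). HIST1H3J, an H3 gene, had 2755, 2336 and 2365 TPM in siVPS37AC libraries, against 5084, 4512 and 4322 TPM in siCTRL libraries (-0.90 ± 0.11, adjusted p = 3.37e-06). All libraries of the double knockdown were below all siCTRL libraries for these 4 genes, and 25.2% of all tested genes did not overlap between these groups. HIST1H4A, which is outside the list and entered through the comparison with siVPS37C, fell against siCTRL by 0.92 ± 0.18 on the log2 scale (adjusted p = 0.00139). HIST1H2AL, named among the largest falls, is outside the list too. The 5 listed genes that did not pass were H1FX, H2AFX, HIST3H2A, H2AFZ and HIST1H2BK, with log2 differences between -0.29 and 0.31. H1FX and H2AFZ are known as genes expressed independently of DNA replication, and so is H1F0, which fell (-0.45 ± 0.11, adjusted p = 0.00923, 0.236 without the block).

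Of the 18 listed histone genes that fell, 15 were also lower than in NT, and 9 held without the replicate block and with any 1 library left out. With 1 library left out, between 14 and 18 fell. Among the histone genes named by size, which are not all on the list, 3 calls did not hold throughout. HIST1H2BJ (-1.11 ± 0.26, adjusted p = 0.00678) was not called without the block (adjusted p = 0.16) or without siVPS37AC replicate 3 (0.055). HIST1H2BL (-1.02 ± 0.29, adjusted p = 0.022) was not called without the block (adjusted p = 0.389) or with any 1 library other than siVPS37AC replicate 3 left out (0.0531 to 0.133), and its groups overlapped. HIST1H2BF (-0.93 ± 0.15, adjusted p = 1.98e-04) was not called without the block (adjusted p = 0.0886). Histone genes of 1 class are nearly identical in their coding parts, so amplicon reads may be divided among copies, and values of single copies are uncertain.

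The promoters of HIST1H2BM and HIST1H1D are shown because histone genes of these classes carry known promoter elements, chosen after the values were seen. Both run from 250 bases before to 50 after the start site of the RefSeq annotation (GRCh38.p14). HIST1H2BM lies at chr6:27814772-27815071 on the plus strand and HIST1H1D at chr6:26234938-26235237 on the minus strand, and capitals mark the H2B octamer ATTTGCAT, whose first base is at -48, and the H1 box AAACACA, whose first base is at -119.
HIST1H2BM: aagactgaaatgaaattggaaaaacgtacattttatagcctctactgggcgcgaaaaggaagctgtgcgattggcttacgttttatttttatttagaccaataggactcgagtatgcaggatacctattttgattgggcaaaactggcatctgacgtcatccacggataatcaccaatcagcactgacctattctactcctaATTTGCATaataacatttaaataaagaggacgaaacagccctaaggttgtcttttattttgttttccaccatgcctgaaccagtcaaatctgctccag
HIST1H1D: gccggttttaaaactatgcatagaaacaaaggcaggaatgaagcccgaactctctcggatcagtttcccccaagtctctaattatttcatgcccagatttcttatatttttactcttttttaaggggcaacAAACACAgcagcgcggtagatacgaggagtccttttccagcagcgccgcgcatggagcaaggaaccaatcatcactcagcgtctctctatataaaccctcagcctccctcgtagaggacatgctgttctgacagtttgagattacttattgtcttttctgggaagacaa
The octamer, searched on both strands, was in 5 of the 6 promoters of tested H2B genes on the list that had an entry, in 3 of 14 promoters of other tested histone genes (HIST1H2AC, HIST1H2AG and HIST1H2AM) and in 1.80% of all 27305 promoters. The H1 box was in 4 of 4 promoters of listed HIST1H1 genes, in none of 16 of the other listed histone genes and in 5.76% of all promoters. The element CCAAT was in 18 of 20 promoters of tested histone genes on the list and in 35.7% of all promoters. HIST1H2BK, whose estimate was 0.31, holds the octamer too.

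Of 37 tested genes of DNA replication, 4 fell (RRM2, CCNE2, CDT1 and CHAF1B) and 1 rose (GINS3), with a median of -0.07. The 4 are 10.8% of the list, against 3.50% of all tested genes lower, and between 1 and 3 fell with any 1 library left out. RRM2 was the only one whose call held without the block and with any 1 library left out. CDT1, which licenses replication origins, had 31.9, 37.4 and 37.6 TPM in siVPS37AC libraries, against 47.5, 47.9 and 50.3 TPM in siCTRL libraries (-0.44 ± 0.13, adjusted p = 0.0324, 0.0723 without the block). Of 29 mitosis genes 1 fell (3.45%), the spindle factor TPX2 (-0.39 ± 0.11, adjusted p = 0.0221, 0.0575 without the block), and the median was -0.06. Of 12 tested p53 targets and cell cycle inhibitors, 2 rose and 2 fell (16.7% each, against 8.30% and 3.50% of all tested genes). None of these 4 held without the block. CDKN1A, the inhibitor p21, had 15.96, 30.1 and 23.4 TPM in siVPS37AC libraries, against 12.8, 19.1 and 8.93 TPM in siCTRL and 35.8, 24.7 and 26.1 TPM in NT libraries. It rose against siCTRL (0.74 ± 0.22, adjusted p = 0.0254), without the block the adjusted p was 0.108, and the estimate against NT was -0.33. None of 24 ribosome biogenesis genes and none of 20 housekeeping genes passed the threshold, with medians of 0.06 and 0.09.

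Inflammatory genes rose in part. Of 10 tested cytokines, chemokines and effectors, 5 rose (IL32, CXCL5, ICAM1, LCN2 and IL18) and none fell, against 8.30% of all tested genes higher. All 10 estimates were positive, with a median of 0.50. The 5 were 3 without the block or without siVPS37AC replicate 3, and 2 without siCTRL replicate 3 or siVPS37AC replicate 2. CXCL5, a neutrophil-attracting chemokine, had 383, 437 and 398 TPM in siVPS37AC libraries, against 209, 272 and 249 TPM in siCTRL and 334, 312 and 381 TPM in NT libraries. It rose against siCTRL (0.74 ± 0.12, adjusted p = 3.22e-04) and was not called against NT (0.25, adjusted p = 0.138). ICAM1, an adhesion receptor for leukocytes, had 17.2, 18.4 and 17.1 TPM in siVPS37AC libraries, against 11.7, 12.8 and 10.4 TPM in siCTRL libraries (0.56 ± 0.14, adjusted p = 0.0122, 0.0634 without siCTRL replicate 3). LCN2, an iron-sequestering antibacterial protein, had 48.9, 77.8 and 50.4 TPM in siVPS37AC libraries, against 37.1, 59.1 and 29.8 TPM in siCTRL libraries (0.51 ± 0.14, adjusted p = 0.0174). The LCN2 values overlapped between the groups, the call was lost without the block (adjusted p = 0.454), and the level was below that of NT cells (-0.78, adjusted p = 2.54e-04). IL32 was the only one of the 5 also called higher against NT. Below the abundance filter, CSF2, the growth factor GM-CSF, had 10.2, 9.75 and 12.5 TPM in siVPS37AC libraries, against 4.19, 7.37 and 4.62 TPM in siCTRL libraries (0.91 ± 0.21, adjusted p = 0.00569 in the model over all genes of the table).

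Of 13 tested NF-kB subunits and feedback genes, 2 rose (15.4%, against 8.30% of all tested genes) and none fell, with a median of 0.07. NFKB2, the precursor of the p52 subunit of the non-canonical pathway, had 83.8, 101 and 89.6 TPM in siVPS37AC libraries, against 59.96, 35.2 and 68.1 TPM in siCTRL and 39.4, 44.7 and 37.04 TPM in NT libraries (0.79 ± 0.16, adjusted p = 0.00238). The siVPS37AC libraries were above all libraries of both controls. Among all tested genes 34.4% did not overlap between siVPS37AC and NT, and 25.2% between siVPS37AC and siCTRL. RELB, its partner subunit, also passed (0.48 ± 0.16, adjusted p = 0.0456), but not without the block (adjusted p = 0.293). The inhibitor NFKBIA (-0.19) and the subunit RELA (0.014) did not pass. TNFAIP3, a feedback deubiquitinase below the filter, had 4.20, 3.48 and 3.29 TPM in siVPS37AC libraries, against 2.41, 1.78 and 1.69 TPM in siCTRL libraries (0.66 ± 0.15, adjusted p = 0.00522 in the model over all genes). Among 8 tested TNF receptor family genes 1 rose (12.5%), TNFRSF10A, a receptor for the death ligand TRAIL. It had 57.97, 57.4 and 61.2 TPM in siVPS37AC libraries, against 38.4, 33.3 and 37.9 TPM in siCTRL libraries (0.68 ± 0.12, adjusted p = 4.85e-04). None of 11 tested interferon response genes passed, and the median was 0.02. Among 8 listed interferon response genes below the filter, IFIT1 and MX1 were called lower in the model over all genes. Of 10 MHC class I and immunoproteasome genes, TAP1 rose and PSMB9 fell (10.0% each, against 8.30% and 3.50% of all tested genes), and neither held without the block.

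Promoters of IL32 and CXCL5, the cytokine genes that held without the block and with any 1 library left out, are shown with the matches to the NF-kB consensus in capitals, where the 2 strands' matches overlap by all but 1 base. They lie at chr16:3065153-3065452 on the plus strand and chr4:73998628-73998927 on the minus strand (GRCh38.p14, RefSeq), and the matches begin at -99 and -91 from the start sites.
IL32: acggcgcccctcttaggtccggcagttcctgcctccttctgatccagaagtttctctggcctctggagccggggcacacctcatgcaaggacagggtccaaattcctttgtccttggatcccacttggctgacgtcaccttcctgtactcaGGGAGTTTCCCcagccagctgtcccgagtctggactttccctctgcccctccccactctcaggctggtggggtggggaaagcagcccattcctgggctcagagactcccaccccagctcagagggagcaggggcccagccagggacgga
CXCL5: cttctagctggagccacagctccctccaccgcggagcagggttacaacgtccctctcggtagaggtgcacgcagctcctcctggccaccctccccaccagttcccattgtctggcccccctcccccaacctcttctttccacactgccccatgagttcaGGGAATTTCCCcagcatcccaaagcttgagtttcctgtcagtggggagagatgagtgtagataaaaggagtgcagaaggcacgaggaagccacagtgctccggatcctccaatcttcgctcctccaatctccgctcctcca
The consensus was in 5 of the 7 promoters of tested genes on the cytokine list with an entry (IL32, CXCL2, CXCL3, CXCL5 and LCN2). It was in 4 of 11 promoters of the NF-kB list (NFKB1, NFKBIA, NFKBIZ and TRAF3) and in 5.72% of all 27305 promoters. NFKB2 and RELB, which rose, were not among those 4. CXCL2 (0.19 ± 0.23) and CXCL3 (0.49 ± 0.22) did not pass the threshold.

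**Figure D3:**
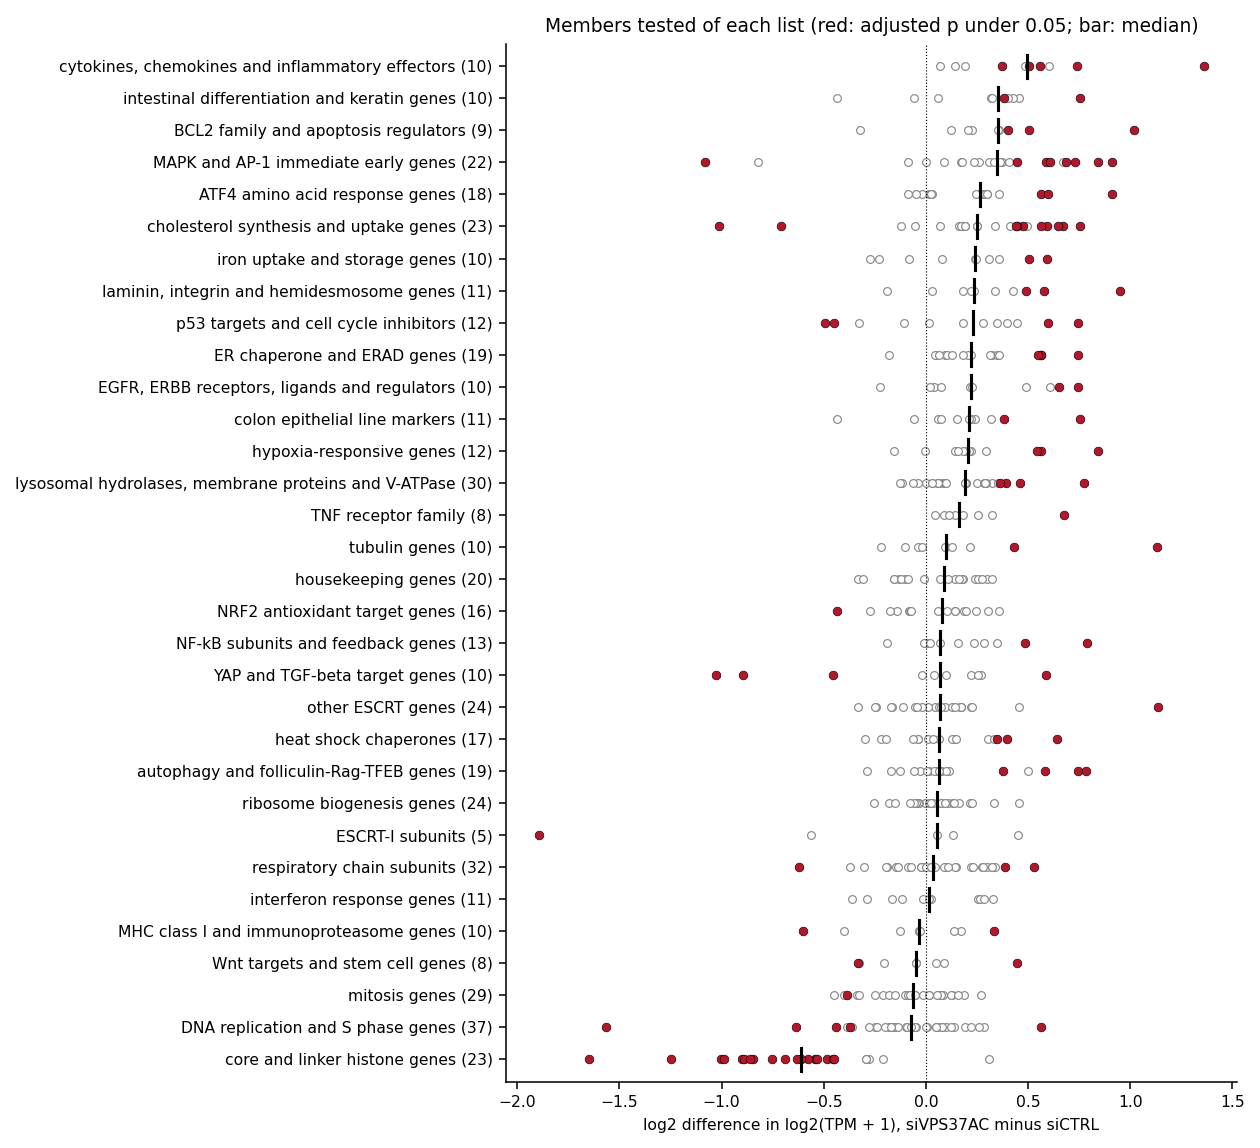
Log2 difference of siVPS37AC minus siCTRL for every tested member of each gene list, with list size in brackets, red points for adjusted p under 0.05 and a bar for the list median. Histone genes lie at the negative end with a median of -0.61, cytokines at the positive end with 0.50, and most other lists have medians between -0.07 and 0.35.

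Of 22 tested MAPK and AP-1 response genes, 7 rose and 1 fell (EGR1), with a median of 0.35. These are 31.8% higher and 4.55% lower, against 8.30% and 3.50% of all tested genes. Without the replicate block 5 rose, and 4 rose without siCTRL replicate 3 or siVPS37AC replicate 2. BHLHE40, a transcriptional repressor, had 60.8, 80.4 and 55.04 TPM in siVPS37AC libraries, against 39.05, 38.3 and 30.2 TPM in siCTRL libraries (0.84 ± 0.17, adjusted p = 0.00168). KLF6, an immediate early transcription factor, had 30.2, 32.2 and 29.9 TPM in siVPS37AC libraries, against 20.7, 17.3 and 18.4 TPM in siCTRL libraries (0.68 ± 0.14, adjusted p = 0.00221). DUSP5, a nuclear phosphatase that inactivates ERK, had 118, 176 and 122 TPM in siVPS37AC libraries, against 89.4, 99.5 and 61.2 TPM in siCTRL libraries (0.73 ± 0.16, adjusted p = 0.0042), and its p was 0.0501 without siCTRL replicate 3. PHLDA1 rose by 0.59 ± 0.12 (adjusted p = 0.00255). FOS had 10.999, 10.1 and 5.74 TPM in siVPS37AC libraries, against 32.1, 36.8 and 2.98 TPM in siCTRL libraries, and did not pass (-0.82 ± 0.41, adjusted p = 0.205). EGFR itself, a receptor that ESCRT proteins sort for degradation, had 46.5, 50.97 and 51.8 TPM in siVPS37AC libraries, against 29.3, 30.95 and 27.6 TPM in siCTRL and 27.2, 27.8 and 19.9 TPM in NT libraries (0.75 ± 0.12, adjusted p = 1.72e-04). Its siVPS37AC libraries were above all libraries of both controls. Among all tested genes 25.2% did not overlap between siVPS37AC and siCTRL, and 34.4% between siVPS37AC and NT. Of the other 9 tested genes of the EGFR list, the feedback inhibitor ERRFI1 also rose (0.65 ± 0.17, adjusted p = 0.0142, 0.2 without the block), and its groups overlapped.

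Of 11 tested genes of laminins, integrins and hemidesmosomes 3 rose, all of them integrin subunits (27.3%, against 8.30% of all tested genes), and 1 rose without siCTRL replicate 3 or siVPS37AC replicate 2. ITGA2, the collagen-binding integrin alpha subunit, had 25.3, 30.4 and 35.4 TPM in siVPS37AC libraries, against 13.9, 14.6 and 16.98 TPM in siCTRL and 13.8, 13.1 and 12.1 TPM in NT libraries (0.95 ± 0.13, adjusted p = 3.04e-05). ITGA5 (0.58 ± 0.15) and ITGA6 (0.49 ± 0.13) rose less, and neither was called without siVPS37AC replicate 2 (adjusted p = 0.0923 and 0.0951). Of 10 tested YAP and TGF-beta targets 3 fell, CYR61, CTGF and AMOTL2, and 1 rose, TGFBI. Without siVPS37AC replicate 2, 1 fell. CTGF had 27.6, 13.97 and 22.8 TPM in siVPS37AC libraries, against 59.05, 37.9 and 27.1 TPM in siCTRL and 24.3, 14.4 and 10.3 TPM in NT libraries (-0.90 ± 0.21, adjusted p = 0.00616, 0.0933 without the block). None of these 3 falls was called against NT. TGFBI, an extracellular matrix protein induced by TGF-beta, had 166, 202 and 175 TPM in siVPS37AC libraries, against 100.4, 124 and 137 TPM in siCTRL libraries (0.59 ± 0.13, adjusted p = 0.00289). Of 10 tested differentiation and keratin genes 2 rose, KRT20 and KRT18. KRT20, a keratin of mature intestinal epithelium, had 56.9, 46.5 and 40.3 TPM in siVPS37AC libraries, against 33.2, 26.1 and 24.4 TPM in siCTRL and 57.7, 55.7 and 62.4 TPM in NT libraries, so it was above siCTRL (0.76 ± 0.16, adjusted p = 0.00255) and not above NT. Among 8 Wnt targets and stem cell genes, MYC rose and AXIN2 fell (12.5% each, against 8.30% and 3.50% of all tested genes). Neither was called in the model without the block.

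Sterol genes rose in 8 of 23 cases and fell in 2, with a median of 0.25. These are 34.8% higher and 8.70% lower, against 8.30% and 3.50% of all tested genes. Without siVPS37AC replicate 2, 4 rose, and 5 rose without siVPS37AC replicate 1, siCTRL replicate 1 or siCTRL replicate 3. IDI1, an isomerase of the cholesterol synthesis pathway, had 218, 232 and 185 TPM in siVPS37AC libraries, against 141, 117 and 139 TPM in siCTRL libraries (0.67 ± 0.13, adjusted p = 0.00118). DHCR7, which completes cholesterol, rose by 0.59 ± 0.13 (adjusted p = 0.00457). INSIG1 (0.75 ± 0.20) and HMGCS1 (0.65 ± 0.16) rose too, though not with every 1 of the 6 libraries left out. PMVK, phosphomevalonate kinase, went the other way, with 18.2, 16.2 and 14.1 TPM in siVPS37AC libraries, against 28.6, 36.7 and 35.9 TPM in siCTRL libraries (-1.01 ± 0.20, adjusted p = 0.00186). IDI1 (0.21) was not called against NT, while DHCR7 (0.36) and PMVK (-1.21) were. Without the block 4 sterol genes rose and 1 fell. The sterol regulatory element, searched on both strands in its exact form, was in 1 of 17 promoters of that list (SREBF2) and in 0.0476% of all promoters.

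Lysosomes are the destination of ESCRT cargo. Of 30 tested lysosomal genes 4 rose (13.3%, against 8.30% of all tested genes) and none fell, with a median of 0.19. Without the block, or without siCTRL replicate 3 or siVPS37AC replicate 2, 1 rose, and 2 rose without siCTRL replicate 2 or siVPS37AC replicate 3. CTSZ, a cathepsin, held in each of these cases, with 53.2, 50.2 and 48.6 TPM in siVPS37AC libraries, against 39.6, 25.4 and 24.8 TPM in siCTRL and 59.7, 55.1 and 44.6 TPM in NT libraries (0.77 ± 0.13, adjusted p = 3.22e-04; -0.058 against NT, adjusted p = 0.772). Of 19 tested autophagy and TFEB pathway genes 4 rose (21.1%), FNIP1, FNIP2, WIPI1 and SQSTM1, of which FNIP1 was called without the block. FNIP1, a partner of folliculin in nutrient signalling at the lysosome, had 26.8, 28.4 and 28.8 TPM in siVPS37AC libraries, against 15.1, 15.9 and 18.1 TPM in siCTRL libraries (0.74 ± 0.11, adjusted p = 9.68e-05). FNIP2, its paralog, had 24.6, 19.3 and 21.4 TPM in siVPS37AC libraries, against 17.5, 10.6 and 15.2 TPM in siCTRL and 8.34, 6.57 and 6.28 TPM in NT libraries (0.58 ± 0.12, adjusted p = 0.00168, 0.0764 without the block). Of 10 iron genes 2 rose, LCN2 and the ferric reductase CYBRD1 (0.59 ± 0.12, adjusted p = 0.00222). Of 16 NRF2 targets 1 fell (6.25%, against 3.50% of all tested genes), NQO1 (-0.43 ± 0.13, adjusted p = 0.0341, 0.378 without the block).

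Of 18 tested ATF4 response genes 3 rose (16.7%, against 8.30% of all tested genes), ATF3, SESN2 and VEGFA, and ATF4 itself did not pass (0.014). Each of those 3 was lost without siVPS37AC replicate 2, with adjusted p of 0.0634, 0.156 and 0.112. Of 19 ER chaperone and ERAD genes 4 rose (21.1%), EDEM1, DERL1, DNAJB9 and HERPUD1 (the last with an adjusted p of 0.154 without the block), while the chaperone HSPA5 did not pass (0.35 ± 0.13, adjusted p = 0.0762). EDEM1, which targets misfolded glycoproteins for degradation, had 40.4, 50.3 and 48.5 TPM in siVPS37AC libraries, against 28.995, 34.6 and 29.6 TPM in siCTRL libraries (0.56 ± 0.11, adjusted p = 0.00168). The ER stress element, in which CCAAT and CCACG stand at a fixed spacing, was searched on both strands. It was in 6 of 18 promoters of that list and in 0.0806% of all promoters. The 6 were those of HSPA5, HSP90B1, XBP1, CRELD2, CALR and CANX, and none of the 4 genes that rose was among them. The ER list had 2 rises without siCTRL replicate 1, siCTRL replicate 3 or siVPS37AC replicate 2. Of 17 heat shock chaperones 3 rose (17.6%), of 12 hypoxia-responsive genes 3 rose, and none of these 6 held with any 1 library left out. Of 32 respiratory chain subunits 2 rose (6.25%) and 1 fell (3.12%), against 8.30% and 3.50% of all tested genes. NDUFA2, a subunit of complex I, was the one that fell (-0.62 ± 0.13, adjusted p = 0.00232). Of 9 tested genes of the BCL2 family and apoptosis 3 rose (33.3%, against 8.30% of all tested genes), BIK and MCL1 among them. Of the 3, BIK alone held with any 1 library left out. BIK, a pro-apoptotic BH3-only protein, had 43.6, 50.7 and 49.4 TPM in siVPS37AC libraries, against 24.3, 21.5 and 23.6 TPM in siCTRL and 38.4, 27.6 and 29.4 TPM in NT libraries (1.02 ± 0.17, adjusted p = 3.22e-04). Of 10 tubulin genes 2 rose, TUBB3 and TUBB2A, the other with a difference of 0.43 ± 0.11 (adjusted p = 0.00936, 0.162 without the block).

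Setting the double knockdown against each single knockdown asks what the second siRNA added. Against siVPS37A, where the added siRNA was that against VPS37C, 145 genes differed (2.25%), 71 higher (1.10%) and 74 lower (1.15%), and 32 of them without the replicate block. Against siVPS37C, where the added siRNA was that against VPS37A, 134 differed (2.07%), 101 higher (1.56%) and 33 lower (0.511%), and 12 without the block. The second of these counts rested on few libraries: 3 genes were called without replicate 2 of siVPS37AC, and 2 with a model of the compared groups alone. With quantile normalization 42 were higher and 35 lower against siVPS37C. All these comparisons use the same siVPS37AC libraries, and those of the single and double knockdowns against control share the siCTRL libraries.

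**Figure D4:**
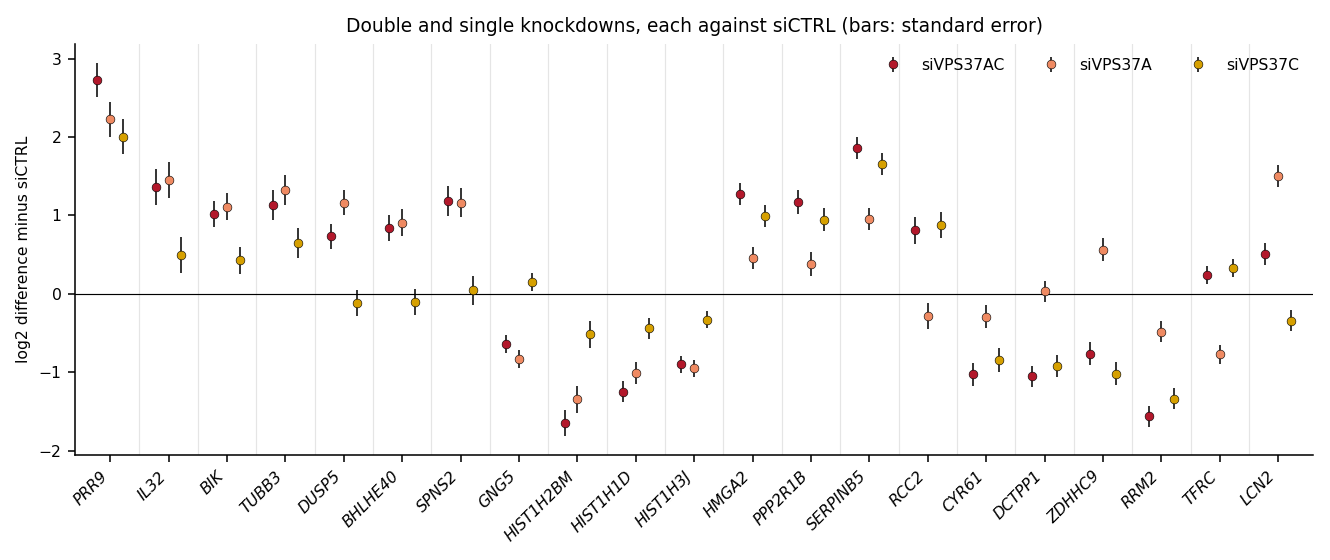
Log2 differences from siCTRL, with standard errors, of siVPS37AC, siVPS37A and siVPS37C for 21 genes named in the text. Genes from IL32 to HIST1H3J have siVPS37AC nearer to siVPS37A, genes from HMGA2 to RRM2 have it nearer to siVPS37C, and for TFRC and LCN2 it lies between single knockdowns of opposite sign.

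One set of genes differed between siVPS37AC and siVPS37A. Among them RRM2, DCTPP1, HMGA2 and ZDHHC9 lay near siVPS37C by their values, and nearness was not tested. RRM2 had 97.3, 94.8 and 106 TPM in siVPS37AC libraries, against 198, 207 and 230.1 TPM in siVPS37A libraries (-1.08 ± 0.13, adjusted p = 2.78e-05), and 104, 99.3 and 153 TPM in siVPS37C libraries. DCTPP1 had 145, 130.2 and 115 TPM in siVPS37AC libraries, against 331, 260.1 and 243 TPM in siVPS37A libraries (-1.09 ± 0.14, adjusted p = 2.89e-05), and 167, 148 and 116 TPM in siVPS37C libraries. HMGA2 had 115, 92.8 and 129 TPM in siVPS37AC libraries, against 78.2, 58.1 and 54.7 TPM in siVPS37A libraries (0.81 ± 0.14, adjusted p = 0.00158), and 107, 78.5 and 91.1 TPM in siVPS37C libraries. RRM2 and DCTPP1 were low, and HMGA2 high, in both groups given the VPS37C siRNA. RCC2, a chromosome-bound regulator of mitosis, was higher in siVPS37AC than in siVPS37A by 1.09 ± 0.17 (adjusted p = 3.43e-04), and PPP2R1B by 0.79 ± 0.15 (adjusted p = 0.00351). GUK1 was lower (-0.90 ± 0.17, adjusted p = 0.00442, 0.0513 without the block). ZDHHC9, a palmitoyltransferase for RAS proteins picked out after its values were seen, had 8.83, 8.68 and 9.40 TPM in siVPS37AC libraries, against 19.97, 21.3 and 32.5 TPM in siVPS37A libraries (-1.33 ± 0.14, adjusted p = 4.02e-06), 7.07, 7.09 and 7.93 TPM in siVPS37C and 15.8, 15.7 and 16.3 TPM in siCTRL libraries. CDIPT, which makes phosphatidylinositol, was higher than in siVPS37A (0.81 ± 0.13, adjusted p = 9.73e-04), and ANXA9 was lower (-0.86 ± 0.18, adjusted p = 0.00928, 0.0901 without siVPS37AC replicate 1).

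Another set differed between siVPS37AC and siVPS37C. Among them HIST1H2BM and GNG5 lay near siVPS37A by their values, and nearness was not tested here either. HIST1H2BM had 74.2, 59.7 and 56.4 TPM in siVPS37AC libraries, against 137, 145 and 136 TPM in siVPS37C libraries (-1.13 ± 0.17, adjusted p = 0.00145), and 77.2, 77.5 and 79.5 TPM in siVPS37A libraries. GNG5, a G protein gamma subunit, had 254, 291 and 370.2 TPM in siVPS37AC libraries, against 468, 544 and 558 TPM in siVPS37C libraries (-0.79 ± 0.12, adjusted p = 0.00145), and 219.8, 275 and 302 TPM in siVPS37A libraries. These 2 calls held without the block and with any 1 library of the compared groups left out. BHLHE40 had 60.8, 80.4 and 55.04 TPM in siVPS37AC libraries, against 35.3, 31.8 and 32.1 TPM in siVPS37C libraries (0.95 ± 0.17, adjusted p = 0.00492, 0.0646 without siVPS37AC replicate 2). SPNS2, an exporter of sphingosine-1-phosphate picked out after its values were seen, had 12.8, 21.9 and 14.4 TPM in siVPS37AC libraries, against 7.63, 8.45 and 4.60 TPM in siVPS37C libraries (1.14 ± 0.19, adjusted p = 0.00324, 0.0554 without siVPS37AC replicate 2). MXD1, an antagonist of MYC picked out in the same way, was higher by 0.88 ± 0.14 (adjusted p = 0.00324, 0.0554 without siVPS37AC replicate 2). IL32 (0.86 ± 0.23) and DUSP5 (0.85 ± 0.16) were higher and HIST1H1D (-0.81 ± 0.14), HIST1H2AL (-0.97 ± 0.17) and HIST1H4A (-0.68 ± 0.18) lower than in siVPS37C, none of them called without the block.

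By group, the single knockdowns had their own counts against siCTRL, which they share with the double knockdown. Over all tested genes 8.30% were higher and 3.50% lower in siVPS37AC, 4.46% and 1.87% in siVPS37A, and 0.945% and 1.13% in siVPS37C, and differences between the knockdowns in the counts of a list were not tested. Of the 23 histone genes 18 fell in siVPS37AC (median -0.61), 15 in siVPS37A (median -0.63) and none in siVPS37C (median -0.20), and 9 were lower in siVPS37AC than in siVPS37C. Of the 10 cytokine genes 5 rose in siVPS37AC (median 0.50), 7 in siVPS37A (median 0.85) and none in siVPS37C (median 0.04). Of the 22 MAPK and AP-1 genes 7 rose in siVPS37AC (median 0.35), 7 in siVPS37A (median 0.39) and none in siVPS37C (median -0.01). Of the 23 sterol genes 8 rose in siVPS37AC (median 0.25), 3 in siVPS37A (median 0.14) and 1 in siVPS37C (median 0.10).

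LCN2 and TFRC were among the named genes whose estimates in the single knockdowns had opposite signs against siCTRL. For both, that of siVPS37A passed the threshold and that of siVPS37C did not, and the double knockdown lay between them. LCN2 had 48.9, 77.8 and 50.4 TPM in siVPS37AC libraries, against 85.7, 176 and 103 TPM in siVPS37A and 31.98, 44.4 and 22.1 TPM in siVPS37C libraries. It was lower than in siVPS37A (-0.99 ± 0.14, adjusted p = 1.20e-04) and higher than in siVPS37C (0.85 ± 0.14, adjusted p = 0.00324), with no call in either comparison without the block (adjusted p = 0.218 and 0.301). TFRC, the transferrin receptor that brings iron into cells, had 189.6, 195 and 239 TPM in siVPS37AC libraries, against 81.7, 109.8 and 118 TPM in siVPS37A and 175, 164 and 187 TPM in siCTRL libraries. It was lower in siVPS37A than in siCTRL (-0.77 ± 0.12, adjusted p = 1.39e-04) and higher in siVPS37AC than in siVPS37A (1.01 ± 0.12, adjusted p = 9.09e-06), while the difference between siVPS37AC and siCTRL did not pass the threshold (0.24 ± 0.12, adjusted p = 0.201).

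**Figure D5:**
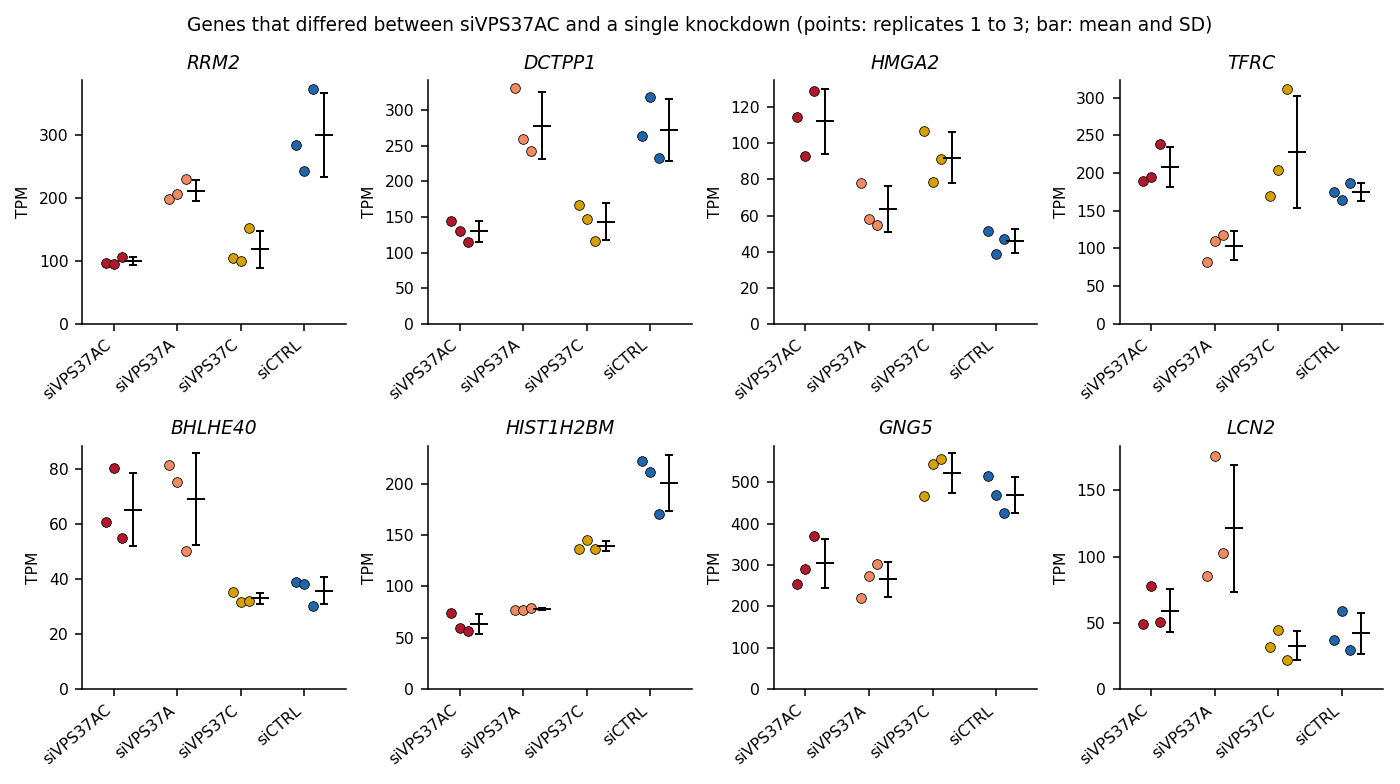
TPM of 8 genes in the 3 libraries of siVPS37AC, siVPS37A, siVPS37C and siCTRL, with 1 point per library and a bar for the mean and SD. RRM2 and DCTPP1 are low and HMGA2 high in both groups given the VPS37C siRNA, HIST1H2BM and GNG5 are low and BHLHE40 high in both groups given the VPS37A siRNA, and TFRC is low in siVPS37A only among the 4 groups.

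Whether the double knockdown departed from the sum of the single ones was tested gene by gene on the log2 scale. No gene of 6458 passed the threshold (0.0% called), in limma with or without the replicate block, and 536 had an unadjusted p under 0.05 (250 without the block). The median standard error of this difference was 0.20, against 0.14 for the difference from siCTRL. PRR9 had the smallest adjusted p (0.34), with a difference from the sum of -1.50 ± 0.31: it had 31.1, 40.5 and 31.4 TPM in siVPS37AC libraries, against 19.4, 22.9 and 29.9 TPM in siVPS37A and 18.8, 24.9 and 17.6 TPM in siVPS37C libraries. Each single knockdown alone was well above siCTRL for this gene (2.23 ± 0.22 and 2.01 ± 0.22). With replicate 3 of siVPS37A left out 7 genes were called, and with siCTRL replicate 1 or siVPS37C replicate 3 left out, 1 each.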

How the data were processed

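RNA of DLD1 cells was profiled with a human Ion AmpliSeq gene expression panel, per the labels; the series has 27 libraries, which are 3 replicates in each of 9 groups. HTSeq 0.6.0, DESeq2 1.18.1 and the build hg19 appear in the submitters' processing notes without their roles. The values deposited by the authors in 1 table of 10470 genes sum to 1000000 in every library and were read as TPM, meaning shares of that total; whether gene length entered is not given in the sources used here. Of 200 low values taken from each library, at most 12% matched multiples of 1 read (tolerance 0.02), so whole reads were not recoverable. The depth of each sample is therefore unknown, and counting intervals are not given. Empty lines (2157) were left out.

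Log2(TPM + 1) values, which understate the fold changes of low genes, were fitted with limma 3.58.1 in R 4.3.3. The model had a mean for each of the 9 groups and the replicate number as a block, 16 residual degrees of freedom and a variance trend, over the 6458 genes averaging 10 TPM or more. Benjamini-Hochberg adjustment was made per comparison, and an adjusted p under 0.05 counted as a call. Rarer genes were taken from an unfiltered fit of that model. The numbers were taken to pair samples because the labels give them as batches; deviations from the group means of same-numbered siVPS37AC and siCTRL libraries correlated at r of 0.38, 0.34 and 0.10 across genes. The model was run on data simulated from its own fitted means and replicate effects with independent errors, which does not test for other batch effects.

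The text names the 3 VPS37 paralogs, the 12 largest rises and 12 largest falls against siCTRL and up to 5 of each in the other comparisons (called, averaging 50 TPM or more, same sign in all 3 pairs), and up to 4 members per list by smallest p, some left out for length; other named genes, motifs and promoters were chosen after their values were seen. Groups, members and gene lists were chosen with earlier results of these data known. Some genes that met these rules are not reported here. Promoters were taken from RefSeq (GRCh38.p14), in which 99.81% of the gene identifiers were found. The alternatives were the model without the block, a library number from the labels as a term in its stead, the groups compared alone, NT as reference, no filter or one at 50 TPM, quantile normalization, a pseudocount of 8, and each library left out.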

Additional observations from a re-analysis of the deposited data

Results flagged for a closer look

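For 3 named genes the VPS37C siRNA went with opposite directions in all 3 pairs when it was given on top of the VPS37A siRNA (siVPS37AC minus siVPS37A) and when it was given alone (siVPS37C minus siCTRL). The difference between these effects is the departure from the sum, which no gene passed after adjustment. ERRFI1, a feedback inhibitor of EGFR, differed by 0.53 ± 0.17 on top of the VPS37A siRNA and by -0.23 ± 0.17 alone (SE), and the 2 effects differed by 0.761 (adjusted p = 0.546). GLA, a lysosomal galactosidase, differed by -0.25 ± 0.12 on top and by 0.21 ± 0.12 alone, a difference of -0.454 (adjusted p = 0.546). NDRG1, a gene induced by hypoxia, differed by -0.21 ± 0.20 on top and by 0.57 ± 0.20 alone, a difference of -0.783 (adjusted p = 0.546).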

How the results depend on the processing

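The count of genes called against siCTRL (762) was 284 without the replicate block, 315 when genes had to average 50 TPM, so that fewer were tested, 1224 with the library number in place of the block and 1682 with NT as reference; with 1 library left out it ranged between 313 and 632. The count against siVPS37A (145) was 32 without the block, 44 with the 50 TPM filter and 17 with the library number, and between 57 and 132 with 1 library left out. The count against siVPS37C (134) was 12 without the block, 64 with the 50 TPM filter, 26 with the library number, 2 in a model of the compared groups alone and 77 with quantile normalization, and between 3 and 143 with 1 library left out. For the departure from the sum it was 0 and between 0 and 7. Beyond the filter and the smaller samples, the cause was not tested. Of 110 log2 changes of named genes, 36 were called with the block and not without it. Changes of sign were counted only where the gene was called in the reported model or in the alternative. With NT as reference the sign of 11 such genes changed: PDCD6 -0.70, LCN2 -0.78, CDKN1A -0.33, KRT20 -0.30, CDA -0.18, RCC2 -0.18, CTSZ -0.058, HERPUD1 -0.018, PSMB9 0.022, CYR61 0.054 and CTGF 0.40. No sign of such a gene changed under the other alternatives. Count tests were not run because the values are not counts. With 3 libraries a group and no depth, small differences in genes of few TPM could not be told from spread between replicates.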
